A study of Mus musculus with 6 samples.

Results

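Conventional type 1 dendritic cells (cDC1) were described here in skin of Balb/c mice, and 112 of 25772 kept cell barcodes met the rule that chose them. A barcode was kept with at least 300 genes detected and at most 15% of its unique molecular identifiers (UMIs, each standing for 1 captured RNA molecule) from mitochondrial genes. A cDC1 barcode then needed at least 1% of its UMIs from the MHC class II genes H2-Aa, H2-Ab1, H2-Eb1 and Cd74, and at least 2 UMIs of Naaa, Xcr1 and Clec9a together. It also needed fewer than 2 UMIs of C1qa, C1qb and C1qc, fewer than 2 of Mgl2, Cd209a and Ccl17, and fewer than 3 of Ccr7 and Fscn1. The members were thus chosen by the measured UMI counts of these 15 genes, so their levels below are descriptions and carry no test.

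The mice were sensitized through the skin for 10 days, and the skin was taken 2 days later, digested with enzymes and profiled with the 10x Genomics 3′ kit, version 2. The control group (EC-SAL) and the ovalbumin-sensitized group (EC-OVA) had 3 libraries each, all of the same strain and tissue, and the labels name no genetic change in either group. Nothing says that the 3 libraries of a group came from separate mice, so the p-values measure the spread between libraries, which may be technical. The labels also give the cell type CD4 for every library, although the tissue is whole skin. In the cDC1 barcodes Cd4, Trac, Trbc2, Cd3g, Trdc, Nkg7, Gzma and Gzmb were at 0, and the 12 T and NK cell markers together gave 4 UMIs in EC-SAL and 12 in EC-OVA.

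cDC1 are the dendritic cell lineage that takes up dying cells and presents their antigens to CD8+ T cells on MHC class I, a process called cross-presentation. The lineage depends on the transcription factors IRF8 and BATF3, and carries XCR1, a receptor for the chemokine XCL1, and CLEC9A, a receptor for actin filaments exposed by dead cells. In skin, many cDC1 also make langerin (Cd207) and the integrin CD103 (Itgae). A related lineage, cDC2, depends on IRF4, and in skin it is the one most often tied to the priming of type 2 helper T cells.

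EC-SAL held 6, 6 and 11 cDC1 among 5335, 4611 and 4344 kept barcodes, and EC-OVA held 38, 29 and 22 among 3840, 4088 and 3554. The sums of their UMIs were 25298, 28703 and 59596 in EC-SAL and 275595, 203888 and 115546 in EC-OVA. So 1 UMI was worth 39.5, 34.8 and 16.8 CPM (counts per 1000000 UMIs of the sum) in the EC-SAL sums, against 3.63, 4.90 and 8.65 CPM in the EC-OVA sums, and low genes were read far more coarsely in the control group. The median UMIs per cDC1 barcode were 3474.5, 4370.5 and 4727 in EC-SAL and 6228, 6143 and 5361.5 in EC-OVA. Of the control barcodes, 6 of 23 were among the highest doublet scores (a score for 2 cells in 1 droplet), against 3 of 89 in EC-OVA. Marker genes of other skin and blood cell types gave at least 3 UMIs in 21 of 23 control and 58 of 89 EC-OVA barcodes. At least 3 keratinocyte UMIs were found in 6 of 6, 5 of 6 and 10 of 11 control members. In EC-OVA they were found in 9 of 38, 9 of 29 and 6 of 22. In some libraries 1 member held most UMIs of a type. It held 550 of 593 keratinocyte UMIs in EC-SAL 3, 275 of 279 fibroblast UMIs in EC-SAL 2, and 488 of 678 fibroblast UMIs in EC-OVA 1. Of the 112 barcode sequences, 8 also occurred in another library, and 0 of these met the rule there.

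All 112 members had Naaa, the lysosomal enzyme that hydrolyses N-acylethanolamines, with 41 having Xcr1 and 28 having Clec9a. Naaa alone had placed 51 members in the set, 61 had Xcr1 or Clec9a, and 8 had all 3 genes. The median member had 7 UMIs of the 3 genes. Just inside the threshold stood 12 members with exactly 2 UMIs, and just outside it 30 barcodes with 1 UMI. The 30 barcodes outside were shallower, at a median of 1518 UMIs against 5741.5 in the members. Summed, they had 794.5 CPM of Irf8, 5269 CPM of the myeloid lysozyme Lyz2, 376 CPM of Cd36 and 97.6 CPM of the plasmacytoid marker Siglech. The MHC class II share of the members ran from 1.31% to 19.7% with a median of 9.79%. At that threshold 1 member lay between 1% and 1.5%, 2 otherwise matching barcodes lay between 0.5% and 1%, and 113 lay under 0.5%. The limit on Mgl2, Cd209a and Ccl17 alone left out 84 barcodes, 22 in EC-SAL and 62 in EC-OVA, and the limits on C1q and on Ccr7 and Fscn1 left out 3 and 1.

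Members with Naaa alone were set beside members with Xcr1 or Clec9a in genes that the rule did not use. Irf8 stood at 956 CPM in the summed Naaa-alone members and at 1353 CPM in the others, where the summed cDC2 barcodes had 54.4 CPM. Batf3 stood at 93.8 and 97.3 CPM, and Cadm1, an adhesion molecule of cDC1, at 180 and 162 CPM. Wdfy4, which cDC1 need for cross-presentation of cell-associated antigen, stood at 130 and 209 CPM. Several other genes lay further apart: Itgae at 65.0 and 32.4 CPM, the epithelial and Langerhans cell adhesion molecule Epcam at 10.8 and 48.7 CPM, the monocyte chemokine receptor Ccr2 at 108 and 48.7 CPM, the macrophage growth factor receptor Csf1r at 21.7 and 2.32 CPM, and Lyz2 at 2541 and 1838 CPM. These are sums over barcodes of both groups, given without a test. The 84 barcodes left out by the limit on cDC2 genes had 543 CPM of Irf8, 80.7 CPM of Batf3 and 177.5 CPM of Cadm1. Their 1086 CPM of Mgl2 and 945 CPM of Ccl17 follow from that limit. A sum over these 84 barcodes does not show how the genes were spread among them. The 30 of them with Xcr1 or Clec9a had 947 CPM of Irf8, 0 of Sirpa, 4.28 CPM of Irf4 and 12.8 CPM of Clec10a beside 364 CPM of Mgl2.

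Irf8 was the marker named with the label that the rule left out, and its promoter is printed for reference. The sequence is from RefSeq on build GRCm38.p6 and covers chr8:120736158-120736357 on the plus strand, the 200 bases that end 1 base before the start of Irf8. The capitals mark 2 matches to TTCNNNGAA, the palindromic spacing bound by STAT factors, at 171 to 163 and 153 to 145 bases before the start.
Irf8: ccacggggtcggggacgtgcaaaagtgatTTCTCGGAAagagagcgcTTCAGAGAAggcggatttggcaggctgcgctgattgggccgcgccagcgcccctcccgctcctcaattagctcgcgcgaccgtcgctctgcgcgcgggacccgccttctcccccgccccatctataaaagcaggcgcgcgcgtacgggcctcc
TTCNNNGAA, which reads alike on both strands, occurred in the 250 bases before 7.02% of 32851 annotated starts. A match describes the letters and says nothing of binding in these cells.

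The share of cDC1 among kept barcodes was higher in every EC-OVA library than in every EC-SAL library. It was 0.112%, 0.130% and 0.253% in EC-SAL and 0.990%, 0.709% and 0.619% in EC-OVA, which gave 0.165% ± 0.0767 (SD, n = 3) and 0.773% ± 0.193 (SD, n = 3) and a ratio of 4.68. The groups did not overlap, and the two-sided exact permutation test gave p = 0.1, the smallest p that 3 against 3 libraries allow. As a share of the barcodes with at least 1% MHC class II UMIs, cDC1 made up 4.14%, 4.76% and 7.91% in EC-SAL and 13.4%, 8.87% and 8.84% in EC-OVA, a ratio of 1.85 with p = 0.1 by the same exact permutation test. As a share of the cDC1, cDC2 and migratory barcodes together they made up 9.68%, 11.1% and 17.5% against 30.4%, 21.97% and 20.8%. The control library EC-SAL 3 lay closest to the EC-OVA libraries on each of these scales.

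Counts of cells in 6 sets were also fitted together with edgeR's quasi-likelihood test. In that fit cDC1 rose by 2.25 ± 0.31 (log2, SE; adjusted p = 0.000216 by edgeR with Benjamini-Hochberg adjustment). Beside them, cDC2 rose by 1.10 ± 0.08, the migratory dendritic set with Ccr7 and Fscn1 by 1.22 ± 0.17, the C1q set by 1.14 ± 0.12 and the other MHC class II barcodes by 1.65 ± 0.13, the nearest to cDC1. The cDC2 set held at least 2 UMIs of Mgl2, Cd209a and Ccl17, and counted 352 barcodes, 129 in EC-SAL and 223 in EC-OVA. The difference between the rise of cDC1 and that of each other set was not tested. Without the barcodes that had 3 or more UMIs of other cell types' markers, the share of cDC1 among kept barcodes stood 18.1 times higher in EC-OVA, with control shares between 0% and 0.0230%, which rest on very few cells.

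**Figure D1:**
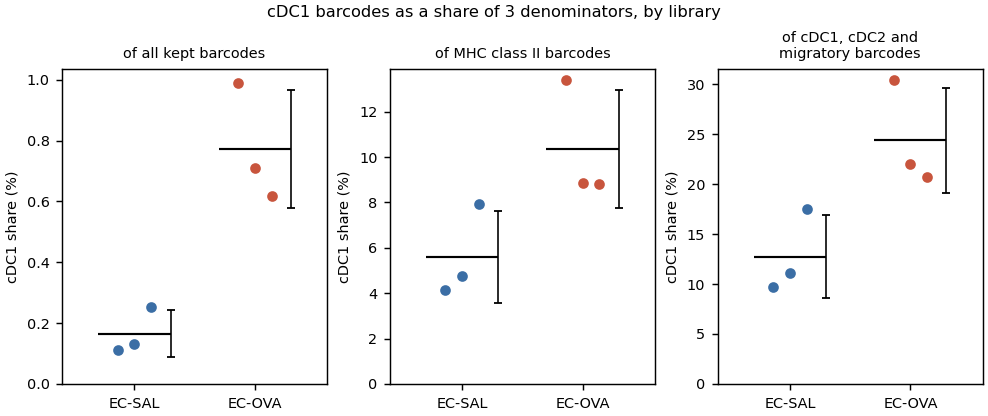
Share of cDC1 barcodes in each library, in percent of all kept barcodes (left), of barcodes with at least 1% MHC class II UMIs (middle) and of the cDC1, cDC2 and migratory sets (right); each point is 1 library, the line is the group mean and the bar its SD. In all 3 panels the EC-OVA points lie above the EC-SAL points, among all kept barcodes at 0.619% to 0.990% against 0.112% to 0.253%. The ratio of the group means is largest there, at 4.68, against 1.85 and 1.91 in the other panels.

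Levels in cDC1 were set beside those in all other kept barcodes, as a description. Naaa stood at 1461 ± 401 CPM (SD, n = 6 libraries) against 15.5 CPM in the other barcodes, Xcr1 at 91.3 ± 43.2 against 0.249 CPM, and Clec9a at 41.3 ± 17.2 against 0.158 CPM, as the rule requires. Outside the rule, the highest ratios included Hepacam2, a membrane protein of the immunoglobulin family (209 ± 78.0 CPM, 190 times the other barcodes), Gpr141b (71.4 CPM, 182 times) and Wdfy4 (148 ± 56.6 CPM, 128 times). The natural killer receptor family gene Klrb1b, the Ras exchange factor Rasgrp4, the septin Sept3, the receptor Gpr171 and the pore-forming Mpeg1 followed at 107, 99.1, 89.8, 89.3 and 83.3 times. The most abundant transcripts were Tmsb4x, the actin-binding thymosin, at 37518 ± 5079 CPM and Cst3, the protease inhibitor cystatin C, at 23297 ± 2433 CPM. Il1b, the inflammatory cytokine interleukin-1 beta, was also among the 12 highest at 4488 ± 849 CPM, where the other kept barcodes had 157 CPM.

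Many identity genes that the rule did not use were higher in cDC1 than in cDC2. Within the same 6 libraries, edgeR's quasi-likelihood test with the library as block called 327 of 2823 genes higher in cDC1 (11.6%) and 410 lower (14.5%), 26.1% in all, with a median log2 difference of −0.02. Of 25 cDC1 identity genes, 15 passed the filter on low counts, 13 of these were higher and 0 lower, and their median was 1.90. Since a gene can pass the filter through the set in which it is high, the counts and medians of this and the following lists between cDC1 and cDC2 are descriptions.

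Irf8, the lineage factor, stood at 1034 ± 428 CPM (SD, n = 6) in cDC1 and 50.5 ± 39.3 CPM in cDC2, a difference of 4.40 ± 0.55 (log2, SE; adjusted p = 0.0016, edgeR with Benjamini-Hochberg adjustment). At least 1 Irf8 UMI was found in 94 of 112 cDC1 (83.9%, exact 95% binomial interval 75.8% to 90.2%, counting error only). That share was 6.25% in cDC2 and 6.08% in the barcodes below 1% MHC class II, at median depths of 5741.5 UMIs in cDC1 and 3481.5 in cDC2. Hepacam2 was higher by 3.84 ± 0.31, and Cadm1 (185 ± 66.5 against 11.97 ± 7.55 CPM) by 3.70 ± 0.35. Rab7b, a GTPase of late endosomes, was higher by 3.36 ± 0.27, the surface glycoprotein Cd24a by 3.18 ± 0.25, the lysosomal thioesterase Ppt1 by 3.09 ± 0.29 and Wdfy4 by 2.58 ± 0.32. The differences were smaller for Batf3 (77.5 ± 37.8 against 27.1 ± 8.22 CPM; 1.63 ± 0.32), Cst3 (1.34 ± 0.16) and Id2, the inhibitor of E proteins that dendritic cells need (0.77 ± 0.16). Of the 15, Flt3, the receptor for the dendritic cell growth factor FLT3 ligand, was 0.66 higher with an adjusted p of 0.092 by the same edgeR test.

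The level of langerin was not called different between the sets. Cd207 stood at 619 ± 145 CPM in cDC1 and 706 ± 690 CPM in cDC2, a log2 difference of 0.50 ± 1.08 with an adjusted p of 0.81 by edgeR's quasi-likelihood test. It was found in 59.8% of cDC1, 12.2% of cDC2 and 0.771% of the barcodes below 1% MHC class II, an order that goes against the CPM and at unequal depth, so no difference is read from it. Itgae, the CD103 chain, was found in 18.8%, 0.852% and 0.502% of the same sets and was too low for the test.

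A list of 19 genes of cDC2 and macrophages included the rule genes Mgl2 and Cd209a, which are not counted. Outside the rule 12 passed the filter, as several could through their level in cDC2. Of the 12, 9 were lower in cDC1, with a median of −3.62, beside 14.5% lower of all 2823 genes. Cd209d, a lectin related to the rule gene Cd209a, had 0 UMIs in 708626 from cDC1 and 1348 in 1470522 from cDC2. Set against a floor of 3 UMIs over all cDC1, that is at least 217-fold lower, and the list's median is unchanged with the gene at that bound. Irf4, the cDC2 lineage factor, had 1 UMI against 149 (72-fold, 95% counting interval 12.7 to 2855), and the lectin Clec10a had 3 against 300 (48-fold, 16.3 to 235.0). Sirpa, the cDC2 surface marker, had 3 UMIs against 111 (17.8-fold, 5.94 to 87.8). Lyz2 (2429 ± 868 against 4112 ± 1911 CPM, adjusted p = 0.21), Ccr2 (0.25) and Klf4 were not called by edgeR.

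**Figure D2:**
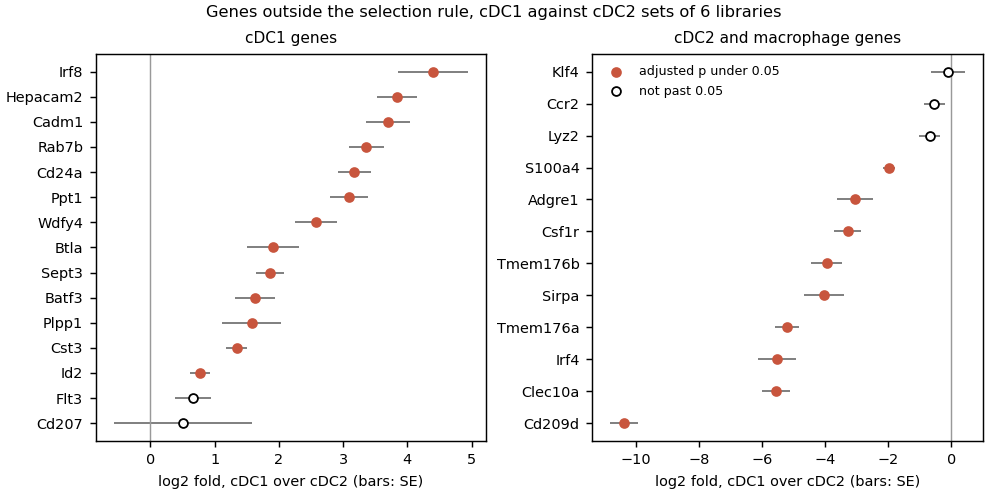
Log2 difference of cDC1 from cDC2 (x axis, with standard error) for 15 identity genes and 12 cDC2 and macrophage genes that the rule did not use, from 6 libraries each; filled points have an adjusted p under 0.05. Identity genes lie to the right, led by Irf8 at 4.40, with Flt3 and Cd207 open, and 9 of the 12 cDC2 and macrophage genes are filled to the left.

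The machinery of MHC class I presentation was split between higher and lower members. Of 19 genes tested, 7 were higher and 5 lower in cDC1 than in cDC2, with a median of 0.29. Over all 2823 genes 11.6% were higher and 14.5% lower. The immunoproteasome subunits Psmb9 (447 ± 209 against 99.3 ± 19.8 CPM) and Psmb8 (976 ± 239 against 354 ± 123 CPM) were higher by 2.16 ± 0.25 and 1.48 ± 0.17. The peptide transporter subunits Tap1 (109.5 ± 66.3 against 32.7 ± 6.47 CPM) and Tap2 were higher by 1.84 ± 0.32 and 1.58, as were the proteasome activators Psme1 (1.39) and Psme2 (0.62) and the GTPase Rab43 (1.66). The heavy chains H2-D1 and H2-K1 were lower by 0.95 and 0.69, the light chain B2m by 0.91 ± 0.14 (1315 against 2384 CPM), and the NADPH oxidase subunit Cybb by 3.11. Psmb9 and Tap1 lie head to head on chromosome 17, with 225 bases between their annotated starts. Of 7 accessory genes of MHC class II, 3 were lower: the lysosomal proteases Ctss and Lgmn (by 1.51 and 2.62) and the thiol reductase Ifi30 (by 1.81).

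Genes of maturation and cytokines were next compared. Of 21 tested genes of maturation and co-stimulation, from 38 listed, 15 were lower and 0 higher, with a median of −1.31. Over all 2823 genes 14.5% were lower and 11.6% higher. The sets were chosen by Ccl17, Ccr7 and Fscn1 of this list, which are not counted. How far the other members go with these 3 through that choice was not tested. They included the NF-kappa-B subunits and regulators Nfkb1 (−1.64), Rel (−2.01) and Nfkbia (−1.13), the adhesion molecule Icam1 (−1.49), the co-stimulators Cd40 (−1.47) and Cd80 (−1.31), and the chemokines Ccl22 (−1.48) and Ccl5 (−2.48). Cd86 differed by 0.00 ± 0.21 and was not called. Of 8 tested cytokine genes, from 24 listed, 6 were lower and 0 higher, from Il1b at −0.44 ± 0.12 to Il1rn, the interleukin-1 receptor antagonist, at −4.99. Il12b, the interleukin-12 subunit, had 2 UMIs in cDC1, both in EC-SAL 3, and Tlr3, the sensor of double-stranded RNA, had 5, all in EC-OVA 1.

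Genes of the response to IL-4, IL-13 and TSLP showed 8 lower and 0 higher of 12 tested, with a median of −1.68, beside 14.5% lower of all 2823 genes. Mgl2 and Ccl17 of this list chose the sets and are not counted. How far the other members go with them through that choice was not tested. The interleukin-7 receptor chain Il7r, which the TSLP receptor shares, had 1 UMI in cDC1 against 182 in cDC2 (88-fold, 95% counting interval 15.5 to 3483), and the mannose receptor Mrc1 had 3 against 181 (29-fold, 9.79 to 142). The STAT factor Stat5a was lower by 1.88 and the cytokine-induced inhibitor Cish by 1.87. Irf4 is on this list too.

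The counts of the next lists stand beside 11.6% higher and 14.5% lower of all 2823 genes, and several are small. Among genes of dead cell uptake, 2 of 8 were higher and 4 lower: Rab7b, and Havcr2 (TIM-3, which binds phosphatidylserine) by 1.26 ± 0.31, against Mfge8, Sirpa, Lrp1 and Syk. Of 6 sensing genes, Unc93b1, the chaperone of the endosomal Toll-like receptors, was higher by 1.26 ± 0.19, and Cd14, Nlrp3 and Tlr2 were lower by 1.51, 1.90 and 2.16. Of 12 chemokine and receptor genes, Ccl4 was higher by 2.44 ± 0.53 (adjusted p = 0.02, edgeR), while 8 were lower, including Ccl9, Ccl6 and Cxcl2 by 5.42, 5.36 and 4.79. Ccl4 has a close paralog in Ccl3, so its count is uncertain. Glycolysis genes were higher in 5 of 11, among them Pgk1, Tpi1 and Pfkp (1.05 ± 0.23), and lower in 0. Type I interferon-stimulated genes were split, with Irf7 (1.44), Ifi35 (1.34) and Stat2 (1.51) higher and Bst2 (−1.60), Isg15 (−1.71) and Ifi27l2a (−1.05) lower of 8 tested. Most Irf7 UMIs of cDC1 lay in single members, with 25 of 38 in EC-OVA 1 and 32 of 37 in EC-OVA 2. Of 17 genes of lysosomes and lipid handling, 3 were higher, among them Psap, the saposin precursor (1.06), and Plin2, a lipid droplet protein (1.81), and 9 were lower. Of 30 dissociation and immediate early genes 9 were lower and 0 higher.

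Some genes of division were also higher in cDC1: the histone H2afz (by 1.32 ± 0.10), the nucleotide reductase Rrm2 (2.07), the kinase Cdk1 (1.95), Hmgb2 (1.67) and the tubulin regulator Stmn1 (1.65 ± 0.40), while Mki67 was lower by 1.58, of 12 tested. Of all 2823 genes 11.6% were higher and 14.5% lower. Each barcode was also thinned to 2000 UMIs, which left out the shallower ones and kept 21 of 23 control and 78 of 89 EC-OVA members. At that depth 14 of 99 cDC1 (14.1%) and 17 of 276 cDC2 (6.16%) had at least 3 UMIs of genes of S phase and mitosis, a list narrowed after the data were seen. Between groups of cDC1 that share was 14.4% ± 17.1 (SD, n = 3) in EC-SAL and 13.7% ± 2.86 (SD, n = 3) in EC-OVA, with p = 1.0 in the two-sided exact permutation test. Unthinned, it was 20.5%, 23 of 112.

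Within cDC1, few genes passed the test between EC-OVA and EC-SAL. edgeR's quasi-likelihood test called 6 of 1101 genes (0.545%), 2 higher in EC-OVA (0.182%) and 4 lower (0.363%), and 115 had an unadjusted p under 0.05. DESeq2 called 1 higher and 9 lower, of which 5 were shared with edgeR. The median log2 difference over the 1096 tested genes outside the rule was 0.02. The 2 that rose were Plet1 and Ifitm2, and the 4 that fell were Dusp1, Lyz1, Sfn and Krt10.

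Plet1, a surface protein anchored in the membrane by a lipid, lies at chr9:50494525-50505482 on the plus strand of mm10. It stood at 0, 34.8 and 16.8 CPM in EC-SAL and at 218, 226 and 121 CPM in EC-OVA. The groups did not overlap, and the control values rest on 2 UMIs against 120 in EC-OVA. The edgeR log2 change was 3.38 ± 0.70 (SE, adjusted p = 0.037, Benjamini-Hochberg), and the ratio of the summed UMIs was 11.5 with a 95% counting interval of 3.103 to 95.7. It was found in 0 of 6, 1 of 6 and 1 of 11 control members and in 10 of 38, 12 of 29 and 7 of 22 EC-OVA members. The call was lost without EC-SAL 1 (adjusted p = 0.085), EC-SAL 3 (0.19) or EC-OVA 3 (0.055) in edgeR, and the gene was below the filter without EC-OVA 1 or EC-OVA 2. With the limit on Mgl2, Cd209a and Ccl17 dropped the log2 change was 0.54 (adjusted p = 0.74, edgeR). Plet1 was also not called without the barcodes of the highest doublet scores.

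Ifitm2, one of the interferon-induced membrane proteins that restrict the entry of viruses, lies at chr7:140954837-140955987 on the minus strand. It stood at 514, 871 and 705 CPM in EC-SAL and at 1560, 1506 and 1696 CPM in EC-OVA, with every EC-OVA library above every control. The log2 change was 1.15 ± 0.25 (SE, adjusted p = 0.043, edgeR with Benjamini-Hochberg adjustment). Over the 6 fits that each left out 1 library, the call was kept in 1, and over 20 alternatives in 11, with an adjusted p of up to 0.27. Its neighbour Ifitm1 stood at 0, 34.8 and 0 CPM against 160, 132 and 130 CPM, 1 UMI against 86, with an adjusted p of 0.056. Ifitm3 of the same cluster differed by −0.38 ± 0.58 (adjusted p = 0.90). These paralogs are alike in sequence, so how reads were shared among them is uncertain.

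The promoters of the 2 genes that rose are shown for comparison with that of Irf8, from RefSeq on GRCm38.p6. That of Plet1 covers chr9:50494365-50494524 on the plus strand, the 160 bases before the start, and its capitals mark a match to TGANTCA, the spacing bound by AP-1 factors, 144 to 138 bases before the start. That of Ifitm2 covers chr7:140955989-140956088 and is printed along the minus strand, bases 127 to 28 before the RefSeq start, which differs from the GENCODE end of the gene given above, and its capitals mark a match to GAAA, any 2 bases and GAAA again, the repeat bound by interferon regulatory factors, 46 to 37 bases before the start.
Plet1: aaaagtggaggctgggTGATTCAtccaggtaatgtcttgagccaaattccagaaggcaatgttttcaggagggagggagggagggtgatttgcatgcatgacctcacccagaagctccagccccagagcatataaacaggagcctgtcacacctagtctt
Ifitm2: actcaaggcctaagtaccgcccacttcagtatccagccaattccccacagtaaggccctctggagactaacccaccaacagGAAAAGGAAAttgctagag
On both strands of the 250 bases before 32851 starts, TGANTCA occurred in 6.75% and the GAAA repeat in 2.98%, and the motifs searched do not overlap in these windows. For the genes higher in cDC1 than in cDC2, of which 252 of 327 matched the RefSeq table, 9.62% of 312 promoters held TGANTCA, 4.49% the GAAA repeat and 4.81% TTCNNNGAA. For the genes lower in cDC1, of which 329 of 410 matched, the shares were 10.1%, 3.92% and 11.3% of 434 promoters.

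Dusp1, a phosphatase that switches off MAP kinases and an immediate early gene, lies at chr17:26505590-26562128. It stood at 1463, 1080 and 1091 CPM in EC-SAL and at 207, 280 and 303 CPM in EC-OVA, and the groups did not overlap. It fell by 2.23 ± 0.26 (log2, SE; adjusted p = 0.00015, edgeR with Benjamini-Hochberg adjustment). In EC-SAL a single member held 32 of 37, 20 of 31 and 42 of 65 of the Dusp1 UMIs, against 9 of 57, 11 of 57 and 8 of 35 in EC-OVA. Of the 20 alternatives it lost the call in 1, without the barcodes of the highest doublet scores (log2 −1.09, adjusted p = 0.19).

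The dissociation and immediate early list, to which Dusp1 belongs, made up 1.98%, 1.39% and 1.11% of the cDC1 UMIs in EC-SAL and 1.02%, 0.857% and 0.895% in EC-OVA. Of its 19 tested members 1 fell, Dusp1, and the median was −0.64. The groups did not overlap for 5 of the 19, all lower in EC-OVA (Atf3, Dusp2, Dnaja1, Klf4, Dusp1), where over all 1101 genes 7.54% were lower without overlap and 11.3% higher. Atf3, a stress-induced factor, stood at 360 ± 243 against 90.4 ± 25.5 CPM (SD, n = 3 each; log2 −1.74, adjusted p = 0.085, edgeR). The part of enzymatic digestion in these values was not tested.

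Lyz1, a lysozyme, lies at chr10:117287797-117292868 beside its near-identical copy Lyz2, so how reads were shared between them is uncertain. It stood at 949, 523 and 554 CPM in EC-SAL and at 123, 172 and 104 CPM in EC-OVA, again with no overlap. It fell by 2.29 ± 0.32 (adjusted p = 0.00062, edgeR) and kept its call in all 20 alternatives in which it was tested. Lyz2 stood at 2530, 4007 and 2064 against 2388, 1388 and 2198 CPM and was not called (log2 −0.54 ± 0.25, adjusted p = 0.46).

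Sfn, the 14-3-3 sigma protein of epithelia, and Krt10, the keratin of the upper epidermis, are keratinocyte markers. Sfn stood at 356, 348 and 923 CPM in EC-SAL and at 43.5, 123 and 77.9 CPM in EC-OVA (fell by 2.91 ± 0.45, adjusted p = 0.0044, edgeR), and kept its call in 15 of 19 alternatives. Krt10 stood at 237, 383 and 201 against 54.4, 73.6 and 86.6 CPM (fell by 1.94 ± 0.41, adjusted p = 0.040, edgeR), and lost its call whenever 1 library was left out. All 11 keratinocyte markers were detected in cDC1, and together they made up 0.111% to 0.995% of the UMIs in EC-SAL and 0.0247% to 0.0476% in EC-OVA. In EC-SAL 3 a single member held 45 of 55 Sfn UMIs. The part of keratinocyte RNA in these 2 results was not tested.

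**Figure D3:**
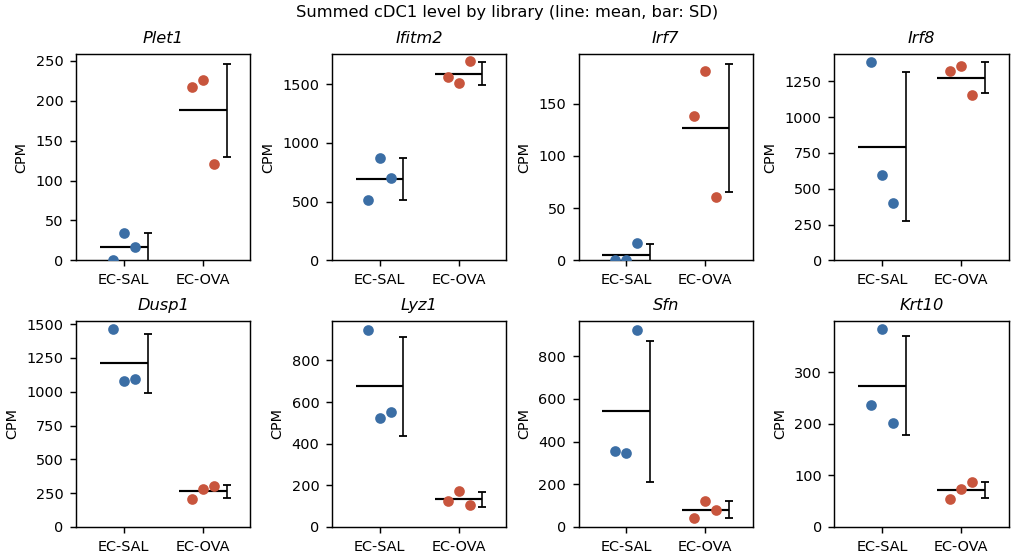
Level in summed cDC1 UMIs of each library, in CPM, for Plet1, Ifitm2, Irf7, Irf8, Dusp1, Lyz1, Sfn and Krt10; points are libraries, the line is the group mean and the bar its SD, with bars ending at 0. For Plet1, Ifitm2 and Irf7 all EC-OVA points lie above the EC-SAL points, for Dusp1, Lyz1, Sfn and Krt10 all lie below, and Irf8 overlaps.

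**Figure D4:**
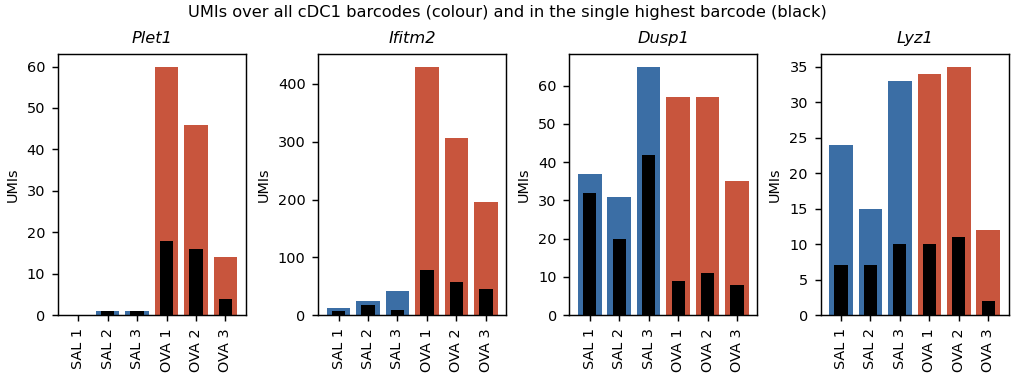
UMIs of Plet1, Ifitm2, Dusp1 and Lyz1 in the cDC1 of each library (y axis, full bar) and in the single barcode with the most (black bar). The black part is most of the Dusp1 bar in all 3 EC-SAL libraries, 32 of 37, 20 of 31 and 42 of 65 UMIs, and a small part of it in EC-OVA.

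Of the 11 tested identity genes 0 were called between the groups, and their median was 0.00. Irf8 stood at 1384, 592 and 403 CPM in EC-SAL and at 1321, 1354 and 1151 CPM in EC-OVA. The groups overlapped through EC-SAL 1, and the log2 difference was 0.77 ± 0.34 (adjusted p = 0.40, edgeR). Irf8 was called higher without EC-SAL 1 (log2 1.32, adjusted p = 0.049, edgeR) and without a filter on low counts (1.25, adjusted p = 0.0095), and stood at 0.39 without EC-SAL 3 (adjusted p = 0.69). Wdfy4 stood at 79.1, 139 and 83.9 against 189, 191 and 208 CPM with no overlap (0.97 ± 0.40, adjusted p = 0.36, edgeR). Batf3, below the filter, stood at 39.5, 34.8 and 67.1 against 83.5, 127.5 and 112.5 CPM. Itgae had 0 UMIs in every control library and 58.1, 58.9 and 34.6 CPM in EC-OVA, from 32 UMIs. Against a floor of 3 UMIs over the control group, that is at least 2.04-fold higher.

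The other identity genes overlapped or nearly so. Cd207 stood at 712, 592 and 654 CPM in EC-SAL and at 715, 338 and 701 CPM in EC-OVA, and Cadm1 at 208 ± 91.9 against 163 ± 33.6 CPM (SD, n = 3 each). The rule genes, given as a description, stood at 2135, 1185 and 990 against 1607, 1545 and 1307 CPM for Naaa, at 158, 34.8 and 118 against 83.5, 93.2 and 60.6 CPM for Xcr1, and at 39.5, 34.8 and 16.8 against 61.7, 34.3 and 60.6 CPM for Clec9a. Each of the 3 overlapped between the groups.

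Interferon-stimulated genes were too low to be tested in cDC1: 0 of 40 passed the filter. Their summed level was 0.0514%, 0.0314% and 0.0520% of the UMIs in EC-SAL and 0.118%, 0.0844% and 0.0623% in EC-OVA, with no overlap. Irf7, the factor that amplifies type I interferon, stood at 0, 0 and 16.8 CPM against 138, 181 and 60.6 CPM, which is 1 UMI against 82 (ratio 15.7, 95% counting interval 2.73 to 626). In EC-OVA 1 and 2, however, 1 member held 25 of 38 and 32 of 37 of those UMIs, and 10, 5 and 3 members of the EC-OVA libraries had any. Rsad2, Cxcl9, Cxcl10 and Ido1 had few or no UMIs in either group.

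For presentation on MHC class I, 13 genes were tested, 0 were called and the median was 0.29. Psmb10, the third immunoproteasome subunit, stood at 39.5, 34.8 and 50.3 CPM in EC-SAL and at 189, 147 and 199 CPM in EC-OVA, with no overlap and an adjusted p of 0.085 (log2 1.96 ± 0.50, edgeR). Psmb8, Psmb9 and Tap1 differed by 0.40, 0.54 and 0.45 and were not called, nor were B2m at −0.31 and H2-K1 at −0.46. Havcr2 stood at 39.5, 69.7 and 33.6 against 170.5, 177 and 156 CPM, also with no overlap (1.89 ± 0.50, adjusted p = 0.095, edgeR). For the accessory genes of MHC class II, 5 were tested and 0 called, among them Ctss at 0.72 (adjusted p = 0.32).

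Of 10 tested maturation genes 0 were called, and their median was −0.56. For 5 of the 10 the groups did not overlap and EC-OVA was lower, beside 7.54% of all 1101 genes: Marcksl1 (895 ± 237 against 417 ± 154 CPM, adjusted p = 0.085), Nfkbia (1452 ± 282 against 763 ± 101 CPM, adjusted p = 0.092), Icam1 (adjusted p = 0.22), Rel and Cxcl16 (adjusted p = 0.52), all by edgeR. The list made up 0.684%, 0.665% and 0.631% of the UMIs in EC-SAL and 0.482%, 0.389% and 0.460% in EC-OVA. That sum includes the rule genes Ccl17, Ccr7 and Fscn1 and is a description. Cd80, below the filter, stood at 79.1, 105 and 33.6 against 25.4, 9.81 and 17.3 CPM. Cd86 overlapped, at 200 ± 80.1 against 246 ± 46.5 CPM.

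Glycolysis genes lay on the other side of the overall median. Of 9 tested 0 were called, and their median was 0.47. Without overlap and higher in EC-OVA were Eno1, Pkm, Ldha (429 ± 158 against 763 ± 75.5 CPM, adjusted p = 0.26) and Pfkp (152 ± 60.1 against 325 ± 72.2 CPM, adjusted p = 0.18), by edgeR. That is 4 of 9, beside 11.3% of all 1101 genes. The list made up 0.304%, 0.230% and 0.282% against 0.427%, 0.417% and 0.359% of the UMIs. Il1b was level at 4309, 5574 and 3205 CPM against 4989, 3934 and 4916 CPM, overlapping between the groups (0.06 ± 0.19, adjusted p = 0.95, edgeR). In the lists of cytokines (2 tested), IL-4, IL-13 and TSLP response (4), dead cell uptake (4), sensing (3), chemokines (2), cell cycle (5), lysosomes and lipid handling (11) and cDC2 and macrophage genes (3), 0 were called. Crlf2, the TSLP receptor chain, differed by −0.55 (adjusted p = 0.71, edgeR).

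**Figure D5:**
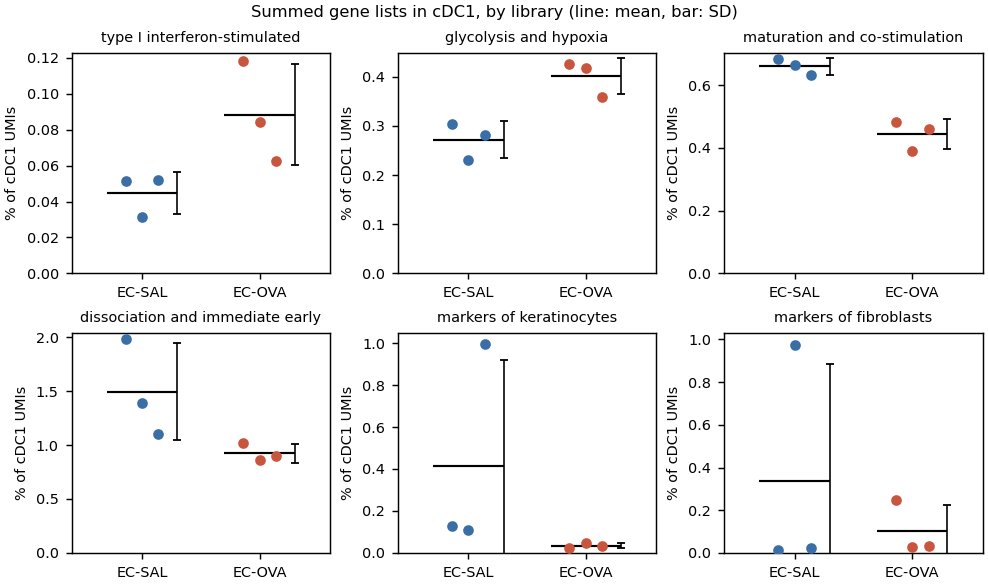
Summed level of 6 gene lists in cDC1, in percent of the cDC1 UMIs of each library, with libraries as points, the group mean as a line and its SD as a bar ending at 0. The interferon-stimulated and glycolysis lists lie higher and the maturation, dissociation and keratinocyte lists lower in all EC-OVA libraries, with EC-SAL 3 far above the rest for keratinocyte genes at 0.995%. The maturation list includes the rule genes Ccl17, Ccr7 and Fscn1.

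In cDC2 alone, edgeR's quasi-likelihood test called 36 of 2679 genes between the groups (1.34%), 15 higher (0.56%) and 21 lower (0.784%). Of the 36, 2 are rule genes and are not read, and outside the rule 15 of 2670 were higher and 19 lower. Some summed lists also moved in cDC2. Maturation genes made up 1.34% to 1.47% of cDC2 UMIs in EC-SAL and 0.881% to 0.907% in EC-OVA. That sum includes the rule genes Ccl17, Ccr7 and Fscn1, so it is a description. Over both groups Ccl17 alone gave 1292 UMIs in cDC2, where the list gave 7889 in EC-SAL and 8175 in EC-OVA. Dissociation genes made up 1.43% to 1.67% against 1.11% to 1.37%, and type I interferon-stimulated genes 0.0633% to 0.0797% against 0.0957% to 0.125%. The glycolysis and keratinocyte lists overlapped between the groups there. The effect of EC-OVA in cDC1 was compared with its effect in cDC2 by the interaction term of an edgeR quasi-likelihood fit with the library as block. Of 2832 genes, 5 were called (0.177%), 3 with the higher effect in cDC1 (0.106%) and 2 with the lower (0.0706%). The rule gene Cd74 was one of the 5 and is not read. Plet1 differed by 5.07 ± 0.71 (log2, SE; adjusted p = 0.00069): in cDC2 it stood at 247 ± 174 CPM in EC-SAL and 99.3 ± 2.34 CPM in EC-OVA, so that the controls lay higher there. Dusp1 differed by −1.64 ± 0.32 (adjusted p = 0.019), beside −0.45 in cDC2 alone. Cst3 differed by 0.82 ± 0.15 (adjusted p = 0.016): in cDC2 it fell by 0.59 ± 0.11, and in cDC1 it stood at 22455 ± 3536 against 24138 ± 408 CPM. Igfbp7, a secreted protein of stromal and endothelial cells, differed by −3.84 ± 0.71 (adjusted p = 0.016), on 27 UMIs in EC-OVA and 14 in EC-SAL cDC1. Single members held 9 of the 10 Igfbp7 UMIs of EC-SAL 2 and 13 of the 23 of EC-OVA 1. Of 8 fibroblast markers, 6 were tested in cDC2 and 3 rose there (median 2.72). All 8 together made up between 0.0236% and 0.173% of the cDC2 UMIs in EC-SAL and between 0.336% and 0.528% in EC-OVA. In cDC1 all 8 were detected, at 0.0158% to 0.972% in EC-SAL and 0.0255% to 0.246% in EC-OVA. Their part in the Igfbp7 result was not tested.

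Against the migratory set, 1 of 1203 genes was called (0.0831%), Il1b. Its effect differed by 1.35 ± 0.21 (log2, SE; adjusted p = 0.012, edgeR). In the migratory set it fell by 1.30 ± 0.22, from 6792 ± 1727 to 2898 ± 415 CPM (SD, n = 3 each), while the cDC1 means were 4363 ± 1186 and 4613 ± 589 CPM. The other called genes of cDC1 did not pass a test of difference. Ifitm2 stood at a log2 change of 0.17 in cDC2, Lyz1 at −3.21 (adjusted p = 0.27), Sfn at −1.27 and Krt10 at −2.02. In the migratory set alone, edgeR also called Krt10 lower in EC-OVA (log2 −2.78, adjusted p = 0.027). There Ifitm2 stood at −0.06 and Sfn at −1.03, neither of them called, and Lyz1 was not tested.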

How the data were processed

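The authors deposited whole-number UMI counts per gene and barcode for each library, made with Cell Ranger 3.1.0 per the file headers and aligned with STAR to mm10 per the submitters' processing notes. The annotation release and the barcode filters are not stated in the labels or headers. Of 38206 deposited barcodes (lowest 500 UMIs), 25772 were kept. Counts were summed per library over each set of barcodes and tested with edgeR 4.0.16 (R 4.3.3; filterByExpr, TMM, robust quasi-likelihood fit, Benjamini-Hochberg over all genes tested, threshold 0.05). Called means an adjusted p under 0.05. DESeq2 1.42.0 was an alternative. Permutation tests used scipy 1.17.1. CPM are UMIs per 1000000 summed UMIs.

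Scrublet (scanpy 1.11.5) marked at most 0.0362% of barcodes by its own threshold and so had not worked. No barcode was removed, and an alternative left out the highest scores, at 0.8% per 1000 deposited barcodes of a library. On simulated counts the cDC1 group test recovered 54.9% of the changed genes at a log2 change of 1 (1122 genes tested), and 100% at 2 (1112) and at 3 (1164). The test of the difference from cDC2 recovered 45.7% at 2 (2887). The simulation gave every gene the same spread between libraries and changed only genes that passed the filter. It therefore does not give the recovery for genes that vary more or are lower.

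The members and lists were chosen with earlier results of these data known. Named genes were the called genes, those with the smallest p in each direction, up to 8 called members of each list or else 3, the highest levels and ratios, genes called in the differences of effects, and a fixed list. The 15 rule genes were left out of the direct comparison with cDC2, and their own results are not read elsewhere. The summed level of the maturation list, however, includes the rule genes Ccl17, Ccr7 and Fscn1. Coordinates are from GENCODE M21 (GRCm38), matched by gene ID, and promoters from RefSeq.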

Additional observations from a re-analysis of the deposited data

Results flagged for a closer look

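For 5 genes the effect of EC-OVA differed between cDC1 and another dendritic set by an edgeR test of the difference itself, in log2. Plet1 differed from its effect in cDC2 by 5.07, and kept that call in 11 of 12 alternatives. None of the 12 dropped the limit on Mgl2, Cd209a and Ccl17, and with that limit dropped Plet1 was not called within cDC1. Cst3 differed by 0.82 and kept the call in 7 of 12. Dusp1 differed by −1.64 and kept it in 7 of 12, with most of its control UMIs in single members. Igfbp7 differed by −3.84 and kept it in 9 of 12, on 14 and 27 UMIs in cDC1. Il1b differed from its effect in the migratory set by 1.35 and kept it in 9 of 12, with the change lying in the migratory set.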

How the results depend on the processing

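The number of genes called between EC-OVA and EC-SAL in cDC1, 6, became 10 with DESeq2 (1 higher, 9 lower), 53 without a filter on low counts (25 higher, 28 lower), 13 with at least 10 UMIs in 3 libraries, and 18 with the limit on Mgl2, Cd209a and Ccl17 dropped, 4 of them shared with the 6. Without the barcodes of the highest doublet scores, 4 of 1001 genes were called (2 higher, 2 lower), and 1 of these, Lyz1, was among the 6. Leaving out 1 library gave 3 to 10 calls, the 10 without EC-SAL 2 and the 3 without EC-OVA 2 or EC-OVA 3. The replicate block gave 4 calls (0 higher, 4 lower), and Plet1 was not among them (log2 3.18, adjusted p = 0.11, edgeR). Same-numbered libraries did not deviate together (correlations 0.011, −0.099 and −0.075), and not every library correlated best with its own number. Differently numbered libraries gave −0.113 to 0.172. With so few barcodes this check cannot tell whether the numbers pair the libraries. The rise in cell number was 2.26 with the replicate block, 2.60 without the highest doublet scores and 2.01 to 2.65 with 1 library left out.

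Against cDC2, 737 calls became 380 of 1212 at 2000 UMIs per barcode, 332 of them shared, and 567 to 895 with 1 library left out. The 5 differences from cDC2 became 23 without a filter, 9 with at least 10 UMIs in 3 libraries, 9 without the highest doublet scores (1 shared) and 1 to 14 with 1 library left out, the 1 without EC-SAL 2. The single difference from the migratory set became 26 without a filter, 4 without the highest doublet scores (0 shared), 2 when thinned, and 0 to 13 with 1 library left out, the 0 without EC-OVA 2 or EC-OVA 3. Stmn1 differed from its effect in cDC2 by −0.06, and by 3.13 (adjusted p = 0.027, edgeR) without the highest doublet scores. Except where fewer or more genes were tested, the cause was not tested.

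The share ratio among kept barcodes was 4.02 to 6.37 with 1 library left out, and among MHC class II barcodes 1.58 to 2.33. In the latter the groups overlapped (exact permutation p = 0.2) with at least 3 UMIs of Naaa, Xcr1 and Clec9a (ratio 1.82) and with the cDC2 limit dropped (1.61). The share of cDC1 with at least 3 cell cycle UMIs was near 100% in both groups, differing by −1.33 points, and by 7.71 points without thinning (exact permutation p = 0.4). It was −2.00 to 0 points with 1 library left out. Gene fits without barcodes holding other cell types' UMIs were not run, since too few control barcodes were left. Depth limits the group comparison: control cDC1 held 113597 UMIs against 595029, and genes below the filter on low counts were not tested.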
